A study of Mus musculus with 12 samples.

Results

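The glutathione, UDP-glycosyl and sulfo transferases were followed in whole-kidney RNA-Seq of mice given a single intraperitoneal injection of vehicle or SK-124. They were taken as the protein-coding genes of GENCODE M21 whose symbol begins with *Gst* and a class letter (a, k, m, o, p, t or z), with *Ugt* or with *Sult*, followed by a digit, which gave 65 of the 55401 genes in the deposited tables. Of these, 22 encode cytosolic or related glutathione transferases, 22 UDP-glycosyltransferases and 21 sulfotransferases. The mice were male C57BL6 animals aged 8 weeks, and no allele or transgene is named for either group. The vehicle group (6 mice) received 15% 2-hydroxypropyl-beta-cyclodextrin, and the SK-124 group (6 mice) received 40 mg/kg SK-124, a selective inhibitor of the salt-inducible kinases SIK2 and SIK3. The interval from injection to collection of these kidneys is not given in the sources used here. 1 library was sequenced per mouse.

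These enzymes make reactive, fat-soluble or hormonal compounds easier to excrete by attaching a charged or bulky group. Glutathione transferases attach glutathione to electrophiles, most UDP-glycosyltransferases attach glucuronic acid or another sugar taken from a UDP-sugar, and sulfotransferases attach sulfate taken from PAPS, the activated form of sulfate. In the kidney the proximal tubule is a main site of such conjugation and of the breakdown of glutathione conjugates.

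Expected counts, which are reads assigned to a gene by RSEM and can be fractional, summed to between 19244227 and 19771802 per mouse. Changes are given on TMM-normalized CPM, in which edgeR scales each gene's count to the size of its library, and levels of different genes are compared on TPM, which also divides by gene length. Vehicle-treated mouse 3 stood apart. Its deviations from the mean of all mice fell with gene length (Spearman's rho -0.42 across 14159 genes), against 0.027 to 0.25 in the other vehicle-treated mice. SK-124-treated mouse 3 was next at -0.30. SK-124-treated mice 4, 5 and 6 were at -0.12, -0.10 and -0.12, and mice 1 and 2 at 0.15 and 0.25. The trend thus also differed between the groups, and leaving out vehicle-treated mouse 3 does not even it out. The tested members were short, with a median effective length of 1189 bases against 2201 bases for all genes tested. Vehicle-treated mouse 3 was the highest of its group for 14 of 17 tested glutathione transferases and for 28.5% of all genes tested, so results are given below with and without it. The defining markers of the labelled tissue were present, with 6 proximal tubule markers summing to 7155 to 8145 CPM in vehicle-treated and 6700 to 8578 CPM in SK-124-treated mice. By edgeR 0 of these 6 were called, with 0 at an unadjusted p under 0.05 and 0 by DESeq2. Of all genes tested, edgeR called 24.4%. The 5 adrenal markers summed to 0.426 to 0.617 CPM in vehicle-treated and 0.301 to 0.877 CPM in SK-124-treated mice, and 2 of them (*Cyp11b2* and *Cyp21a1*) were listed at 0 in every mouse.

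The levels of the members spanned a wide range. Of the 65 members, 35 passed the filter on low counts (17 glutathione transferases, 13 UDP-glycosyltransferases and 5 sulfotransferases). Of the 30 that did not, 15 were listed at 0 in every mouse and 15 reached at most 15 counts in any mouse. Every gene of the *Sult2a* cluster on chromosome 7 (8 genes) and both *Sult3a* genes were among those at 0, as were *Ugt1a5*, *Ugt1a8*, *Ugt2a1*, *Ugt2a2* and *Ugt2b36*. *Sult1e1*, which encodes the oestrogen sulfotransferase, reached at most 1 count in any mouse.

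Among glutathione transferases, *Gstm1*, a mu-class enzyme, had the highest level, at 465 ± 28.6 TPM (SD, n = 6) in vehicle-treated mice. *Gstp1*, the main pi-class gene, followed at 274 ± 39.0 TPM (SD, n = 6). *Gstz1*, which isomerizes maleylacetoacetate in tyrosine breakdown, was at 151 ± 7.74 TPM (SD, n = 6). The ranges of these 3 genes did not overlap in vehicle-treated mice (432 to 512, 245 to 346 and 142 to 165 TPM). *Gstz1* was not separated from *Gsta2*, an alpha-class gene, which was at 139 ± 12.3 TPM (SD, n = 6) and reached 154 TPM.

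Among UDP-glycosyltransferases, *Ugt3a2* was at 252 ± 14.3 TPM (SD, n = 6) and *Ugt2b38* at 229 ± 30.0 TPM (SD, n = 6) in vehicle-treated mice, and their ranges overlapped (228 to 266 and 187 to 279 TPM). *Ugt3a1* was at 102 ± 6.36 TPM (SD, n = 6), below both. The Ugt3 enzymes use UDP-sugars other than UDP-glucuronic acid, and the Ugt2b enzymes glucuronidate steroids and drugs. *Ugt1a7c* came next at 94.5 ± 8.94 TPM (SD, n = 6), and its range of 79.8 to 104 TPM overlapped that of *Ugt3a1*. The remaining UDP-glycosyltransferases were each below the lowest *Ugt1a7c* value, with *Ugt2b37* leading them at 27.5 ± 5.27 TPM (SD, n = 6).

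Among sulfotransferases, *Sult1d1*, which sulfates dopamine and other amines with a phenol group, was at 91.0 ± 9.29 TPM (SD, n = 6) in vehicle-treated mice. *Sult1c2* was at 25.0 ± 2.86 TPM and *Sult1a1*, the phenol sulfotransferase, at 7.92 ± 0.904 TPM (SD, n = 6 each), and the ranges of these 3 genes did not overlap. *Sult1d1*, *Sult1c2* and *Sult1a1* held 97.0% to 98.6% of all sulfotransferase TPM in a mouse. By comparison, the 3 leading genes of the class held 55.2% to 59.1% among glutathione transferases and 77.6% to 81.1% among UDP-glycosyltransferases.

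**Figure D1:**
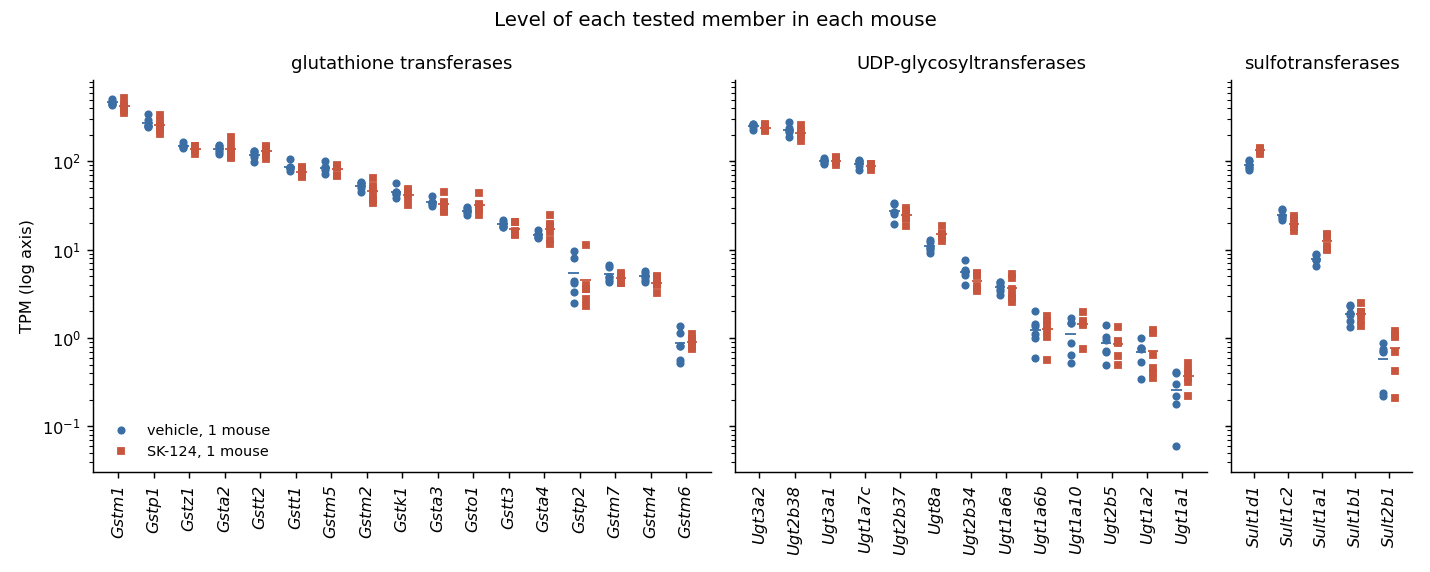
Level of each of the 35 tested members in TPM on a log axis, in 3 panels by enzyme class, with each point 1 mouse (circles vehicle, squares SK-124) and each short line a group mean. *Gstm1* leads at a vehicle mean of 465 TPM, and *Sult1d1* and *Sult1a1* are the genes whose SK-124 points all lie above the vehicle points.

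SK-124 was compared with vehicle by edgeR's quasi-likelihood test across all 14159 genes tested, with a gene called at a Benjamini-Hochberg adjusted p (FDR) under 0.05. *Sult1d1*, *Sult1a1*, *Ugt8a*, *Gstt2*, *Gsto1* and *Gsta4* were higher and *Sult1c2* was lower in SK-124-treated mice. That is 6 members higher, or 17.1% of the 35 tested, where 10.8% of all genes tested were higher. 1 member was lower, or 2.86%, where 13.5% of all genes were lower. In either direction 7 members were called, or 20.0%, against 24.4% of all genes tested, so members were not called more often than genes at large. The groups did not overlap for 3 members (*Sult1d1*, *Sult1a1* and *Gsto1*) of 35, where 13.0% of all genes tested had groups that did not overlap. The median log2 fold change was 0.08 over the tested members and -0.01 over all genes, with 25 members above and 10 below 0. Scaling by library totals alone moved the median of all genes to -0.12 and that of the members to -0.04. With that scaling 3 members (*Sult1d1*, *Sult1a1* and *Ugt8a*) were higher, against 5.49% of all genes, and 1 (*Sult1c2*) was lower, against 21.6% of all genes. In whole-kidney RNA, fewer cells of a type and less RNA per cell cannot be told apart.

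**Figure D2:**
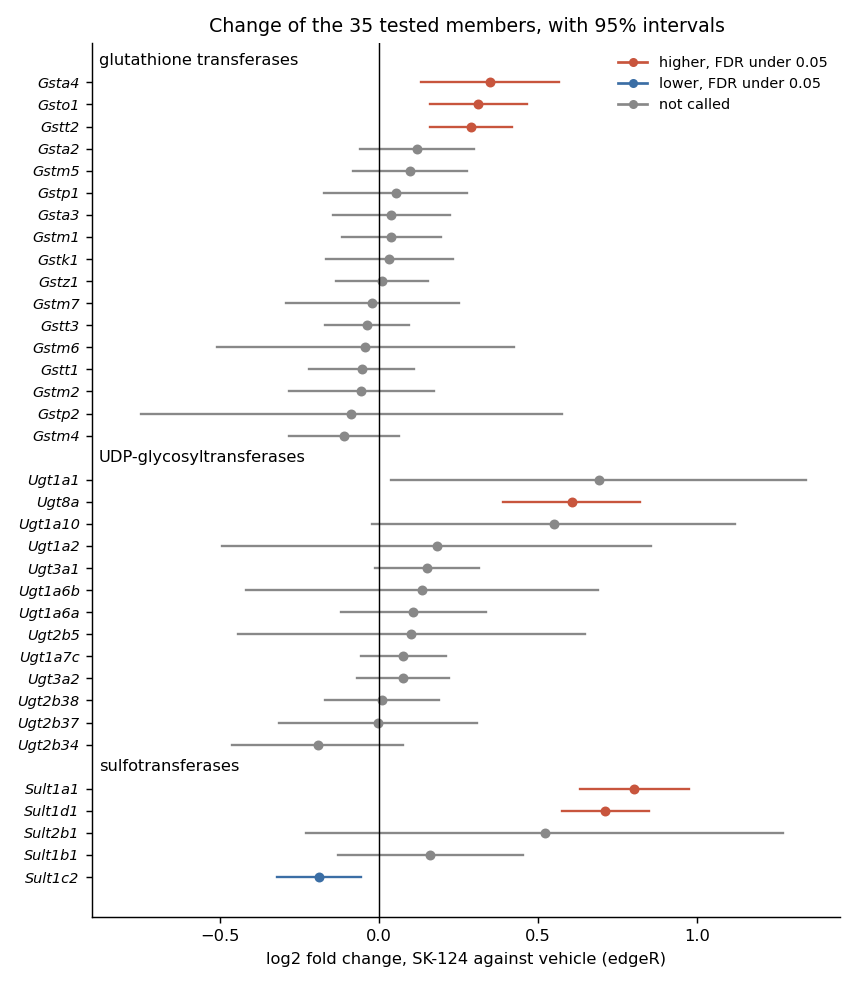
Log2 fold change of the 35 tested members (edgeR, SK-124 against vehicle), grouped by enzyme class, with lines giving 95% intervals. The 6 members called higher run from 0.29 (*Gstt2*) to 0.80 (*Sult1a1*), *Sult1c2* is called lower at -0.19, and the points of most glutathione transferases lie near 0.

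The sulfotransferases held the members with the smallest adjusted p. For 3 of them and for *Ugt8a*, RefSeq gives a start on GRCm38.p6, and the 250 bases before it are printed 5′ to 3′ on the gene's strand. They show what lies before the RefSeq start of the 3 higher members with the smallest adjusted p and of the 1 lower member. *Sult1d1* (chr5:87569007-87569256, minus strand), *Sult1a1* (chr7:126676419-126676668, minus strand) and *Ugt8a* (chr3:125938653-125938902, minus strand) rose, and *Sult1c2* (chr17:53845959-53846208, minus strand) fell. For *Sult1c2* the RefSeq start lies 381 bases inside the gene as GENCODE M21 annotates it, so its printed window is within that gene. For the other printed members the starts of the RefSeq and GENCODE annotations were 14 to 33 bases apart. Capitals mark matches to the motifs described below, on either strand.
Sult1d1: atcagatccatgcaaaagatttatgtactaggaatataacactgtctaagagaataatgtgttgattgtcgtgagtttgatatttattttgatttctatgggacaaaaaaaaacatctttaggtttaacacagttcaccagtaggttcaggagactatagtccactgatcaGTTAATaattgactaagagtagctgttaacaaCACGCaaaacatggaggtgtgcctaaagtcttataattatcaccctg
Sult1a1: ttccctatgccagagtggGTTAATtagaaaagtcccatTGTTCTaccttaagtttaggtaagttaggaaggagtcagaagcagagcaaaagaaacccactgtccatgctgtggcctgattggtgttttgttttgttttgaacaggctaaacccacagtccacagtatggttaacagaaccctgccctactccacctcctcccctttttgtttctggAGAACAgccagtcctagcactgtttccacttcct
Ugt8a: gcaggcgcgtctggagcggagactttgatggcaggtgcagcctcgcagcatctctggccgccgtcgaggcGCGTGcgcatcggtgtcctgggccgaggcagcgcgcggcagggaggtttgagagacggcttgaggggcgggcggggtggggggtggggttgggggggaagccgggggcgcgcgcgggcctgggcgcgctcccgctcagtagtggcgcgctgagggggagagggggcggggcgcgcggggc
Sult1c2: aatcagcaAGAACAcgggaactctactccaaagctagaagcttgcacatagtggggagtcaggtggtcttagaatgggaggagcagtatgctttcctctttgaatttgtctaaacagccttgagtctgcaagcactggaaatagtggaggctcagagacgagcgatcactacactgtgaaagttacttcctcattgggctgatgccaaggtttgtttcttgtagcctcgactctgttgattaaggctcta

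The motifs were the antioxidant response element core TGACNNNGC, the xenobiotic response element core GCGTG, the cAMP response element TGACGTCA with its core TGACG, 1 arm of the glucocorticoid response element (AGAACA) and 1 arm of the HNF1 site (GTTAAT). They were searched on both strands of windows from 250 bases before to 50 after the start. TGACG lies within TGACGTCA and can overlap TGACNNNGC. The table held 57 of the 65 members and 31 of the 35 tested ones, and *Gstt2* and *Gsta4* had no entry. The *Sult1d1* sequence above carried GTTAAT beginning 79 bases before the start and GCGTG on the opposite strand 47 bases before it. The *Sult1a1* sequence carried GTTAAT 232 bases before the start, and AGAACA at 34 bases and, on the opposite strand, at 212 bases. *Ugt8a* carried GCGTG 180 bases and *Sult1c2* AGAACA 242 bases before the start. For the counts that follow, a gene had a motif when any of its windows held it. The full TGACGTCA was in 0 of the 57 members and in 2.03% of all 27025 genes. GTTAAT was in 14 of 57 members against 8.24% of all genes, AGAACA in 15 against 21.3%, GCGTG in 12 against 35.2%, TGACG in 6 against 23.0% and TGACNNNGC in 3 against 14.0%. Among the 31 tested members with an entry, GTTAAT was in 7, AGAACA in 11, GCGTG in 8, TGACG in 5 and TGACNNNGC in 3. The printed windows differed in base composition, from 34.0% G and C in *Sult1d1* to 76.8% in *Ugt8a*.

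*Sult1d1* (ENSMUSG00000029273.10) lies on chromosome 5 from 87554645 to 87569027 on the minus strand (GENCODE M21, GRCm38), beside the *Ugt2* genes. In vehicle-treated mice its CPM ran from 194 through a median of 217 to 243, and in SK-124-treated mice from 319.6 through 358 to 388. Every SK-124-treated mouse was above every vehicle-treated mouse, with a gap wider than the spread of either group. The log2 fold change was 0.71 (SE 0.06, 95% interval 0.58 to 0.85), or 1.64-fold, with FDR = 3.42e-07 by edgeR, and the two-sided exact permutation p was 0.00216, the smallest that 6 mice against 6 allow. Without vehicle-treated mouse 3 it was 0.70. The gene shared no 50-base word with any other annotated transcript, and it was called in 24 of 24 alternative fits.

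*Sult1a1* (ENSMUSG00000030711.16) lies on chromosome 7 from 126672865 to 126676432 on the minus strand. Its CPM ran from 7.04 through 9.02 to 9.53 in vehicle-treated mice and from 13.8 through 15.7 to 16.7 in SK-124-treated mice. The groups did not overlap, and the lowest SK-124-treated mouse was well clear of the highest vehicle-treated mouse. It rose by 0.80 on the log2 scale (SE 0.08, 95% interval 0.63 to 0.97), or 1.74-fold, with FDR = 1.25e-06 by edgeR and an exact permutation p of 0.00216. The value was 0.82 without vehicle-treated mouse 3, and the gene was called in 24 of 24 alternative fits. *Sgf29* overlaps it on the opposite strand and was at 6.86 CPM in vehicle-treated and 6.33 CPM in SK-124-treated mice (log2 fold change -0.12, FDR = 0.441, edgeR). Whether reads were counted by strand is not given in the sources used here.

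*Sult1c2* (ENSMUSG00000023122.6) lies on chromosome 17 from 53829637 to 53846339 on the minus strand. Its CPM ran from 40.9 through 43.9 to 47.7 in vehicle-treated mice and from 35.2 through 38.7 to 44.9 in SK-124-treated mice. SK-124-treated mouse 4, at 44.9, lay inside the vehicle range, and the other SK-124-treated mice lay below it. The log2 fold change was -0.19 (SE 0.06, 95% interval -0.32 to -0.06), with FDR = 0.0367 by edgeR and an exact permutation p of 0.0173. This call was made in 13 of 24 alternative fits and was lost when any of vehicle-treated mice 5 and 6 or SK-124-treated mice 1, 2, 3, 5 and 6 was left out, while the value stayed between -0.23 and -0.16.

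The other 2 tested sulfotransferases had few counts. *Sult1b1*, which sulfates thyroid hormone, was at 2.31 ± 0.360 CPM in vehicle-treated and 2.58 ± 0.359 CPM in SK-124-treated mice (SD, n = 6 each), giving a log2 fold change of 0.16 (95% interval -0.13 to 0.45). *Sult2b1*, the cholesterol sulfotransferase, was at 0.599 ± 0.320 and 0.855 ± 0.360 CPM (SD, n = 6 each), with a log2 fold change of 0.52 and an interval of -0.23 to 1.27. Neither was called. Summed over the class, sulfotransferase TPM ran from 114 to 144 in vehicle-treated and from 151 to 183 in SK-124-treated mice. The sums did not overlap, and *Sult1d1* made up most of them in every mouse.

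*Ugt8a* was the called UDP-glycosyltransferase. It encodes ceramide galactosyltransferase, which makes galactosylceramide, the precursor of sulfatide, and so belongs to the family by sequence and not by handling of drugs. The gene (ENSMUSG00000032854.12) lies on chromosome 3 from 125865271 to 125938619 on the minus strand. Its CPM ran from 35.4 through 39.5 to 52.3 in vehicle-treated mice and from 52.0 through 63.9 to 73.6 in SK-124-treated mice. The groups touched at 1 point, where SK-124-treated mouse 5 lay just below vehicle-treated mouse 4. The rise was 0.61 on the log2 scale (SE 0.10, 95% interval 0.39 to 0.82), or 1.52-fold, with FDR = 0.000273 by edgeR and an exact permutation p of 0.00433. It was 0.58 without vehicle-treated mouse 3. *Ugt8a* was called in 24 of 24 alternative fits and shared no 50-base word with other transcripts.

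The UDP-glycosyltransferases with the highest levels did not pass the test. For *Ugt3a2* the log2 fold change was 0.08 with a 95% interval of -0.07 to 0.22, and for *Ugt2b38* it was 0.01 with an interval of -0.17 to 0.19. Both turned negative when scaled by library totals, at -0.04 and -0.10. *Ugt3a1* had 0.15 (interval -0.01 to 0.32, FDR = 0.180 by edgeR) and was called only without vehicle-treated mouse 3, at 0.20 with FDR = 0.0490, among the fits run. The largest log2 fold change of the class, 0.69 for *Ugt1a1*, whose product glucuronidates bilirubin, was not called (FDR = 0.119, edgeR) and rested on 2.81 to 22.6 counts per mouse.

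The 9 *Ugt1a* genes are nested on chromosome 1 between 88055388 and 88220002 and share their last exons, so that 52.1% to 79.8% of the 50-base words of the 6 tested ones also occur in other transcripts. RSEM's posterior SD, its own estimate of the uncertainty from shared reads, was 28.8% to 70.6% of the count for *Ugt1a1* and 0.330% to 0.686% for *Ugt1a7c*. Taken as 1 locus, the 9 genes summed to 320.2 ± 15.7 CPM in vehicle-treated and 339.5 ± 29.3 CPM in SK-124-treated mice (SD, n = 6 each), and the ranges overlapped (299 to 339 and 309 to 381 CPM). *Ugt1a7c* held 92.5% to 95.9% of the locus in each mouse. By edgeR 0 of the 6 tested *Ugt1a* genes were called, with 1 at an unadjusted p under 0.05 and 0 by DESeq2. Of all genes tested, 24.4% were called by edgeR. *Ugt1a10* was called without vehicle-treated mouse 3, where its log2 fold change was 0.78 (FDR = 0.0321, edgeR), against 0.55 (FDR = 0.158) with all mice.

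Of the 17 tested glutathione transferases, *Gstt2*, *Gsto1* and *Gsta4* rose, by 0.29 to 0.35 on the log2 scale, and 14 were not called. That is 17.6% higher, where 10.8% of all genes tested were higher. *Gstt2* (ENSMUSG00000033318.7), a theta-class gene on chromosome 10 from 75831114 to 75837424 on the minus strand, ran from 66.6 through 76.1 to 85.9 CPM in vehicle-treated mice and from 84.3 through 93.8 to 98.6 CPM in SK-124-treated mice. The overlap came from vehicle-treated mouse 3 and SK-124-treated mouse 2. The log2 fold change was 0.29 (SE 0.06, 95% interval 0.16 to 0.42, FDR = 0.00185 by edgeR), the exact permutation p was 0.00433, and leaving out vehicle-treated mouse 3 gave 0.33.

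*Gsto1* (ENSMUSG00000025068.8) encodes an omega-class enzyme that reduces dehydroascorbate and methylated arsenic, and lies on chromosome 19 from 47854970 to 47864790 on the plus strand. Its CPM ran from 25.8 through 27.0 to 28.3 in vehicle-treated mice and from 30.6 through 32.2 to 42.2 in SK-124-treated mice. The groups did not overlap, and SK-124-treated mouse 5 was far above the other 5. On the log2 scale the rise was 0.31 (SE 0.07, 95% interval 0.16 to 0.46), with FDR = 0.00386 by edgeR and an exact permutation p of 0.00216, and it remained between 0.24 and 0.34 with each mouse left out in turn. *Cfap43*, which overlaps it on the opposite strand, was at 0.0249 CPM in vehicle-treated and 0.0176 CPM in SK-124-treated mice.

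*Gsta4* (ENSMUSG00000032348.6) encodes an alpha-class enzyme that conjugates 4-hydroxynonenal, a product of lipid peroxidation, and lies on chromosome 9 from 78182774 to 78209349 on the plus strand. Its CPM ran from 11.4 through 12.2 to 13.8 in vehicle-treated mice and from 12.4 through 15.8 to 20.4 in SK-124-treated mice. SK-124-treated mice 1 and 2 lay inside the vehicle range, and the other 4 lay above it. The log2 fold change was 0.35 (SE 0.10, 95% interval 0.13 to 0.56), with FDR = 0.0190 by edgeR and an exact permutation p of 0.0216. For *Gstt2*, *Gsto1* and *Gsta4* the call was lost when counts were scaled by library totals alone and in both fits on TPM, where the direction was kept. *Gsta4* was also not called when SK-124-treated mice 1 to 3 alone were set against vehicle.

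**Figure D3:**
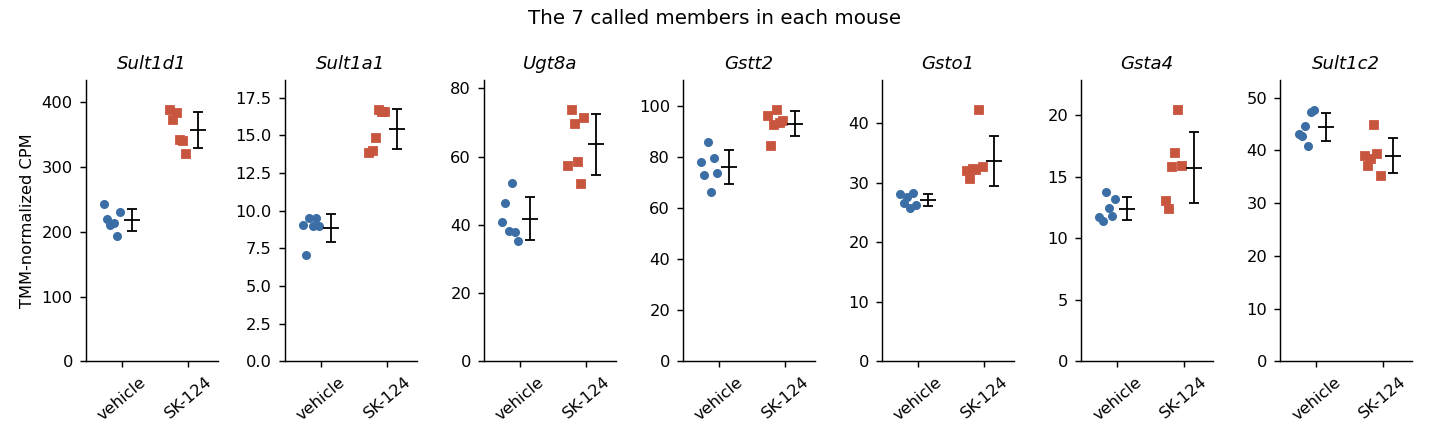
TMM-normalized CPM of the 7 called members, ordered by adjusted p, with each point 1 mouse (circles vehicle, squares SK-124) and the bars giving mean ± SD of 6 mice on axes that start at 0. *Sult1d1*, *Sult1a1* and *Gsto1* show no overlap between the groups, *Ugt8a* overlaps at 1 point, and 1 SK-124-treated mouse of *Sult1c2* lies inside the vehicle range.

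The glutathione transferases with the highest levels gave log2 fold changes close to 0. *Gstm1* was at 390 ± 36.2 CPM in vehicle-treated and 400.4 ± 40.8 CPM in SK-124-treated mice (SD, n = 6 each), with a log2 fold change of 0.04 and a 95% interval of -0.12 to 0.19. *Gstp1* gave 0.05 (interval -0.17 to 0.28) and *Gstz1* 0.01 (interval -0.14 to 0.15). All 3 turned negative when scaled by library totals, at -0.07, -0.05 and -0.10. Vehicle-treated mouse 3 had 207 CPM of *Gstp1*, where the other vehicle-treated mice had 124 to 134 and the SK-124-treated mice 131 to 166. Without that mouse *Gstp1* was called higher at 0.19 (FDR = 0.0249, edgeR), as was *Gstm5* at 0.19 (FDR = 0.0247), and in all 10 members were called higher in place of 6. By contrast, *Gstm1* without that mouse was at 0.09 (FDR = 0.307). Calls rose over all genes too, with 1863 of 14252 higher in that fit against 1536 of 14159 with all mice. With offsets for gene length in each mouse, chosen after seeing the data, the called members were the same 7 genes, and *Gstp1* was at 0.04 (FDR = 0.766, edgeR).

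Of the 6 tested mu-class genes, which lie in 1 cluster on chromosome 3, 0 were called by edgeR, where 24.4% of all genes tested were called. At an unadjusted p under 0.05 there were 0, and 0 by DESeq2. Their log2 fold changes ran from -0.11 (*Gstm4*) to 0.10 (*Gstm5*). *Gstp2* shares 54.3% of its 50-base words with other transcripts, and its posterior SD was 23.9% to 60.3% of its count, so its log2 fold change of -0.09 is uncertain. *Gstp1* and *Gstp2* together summed to 146 ± 32.2 CPM in vehicle-treated and 151 ± 12.1 CPM in SK-124-treated mice (SD, n = 6 each), of which *Gstp1* held 97.3% to 99.2%. Summed TPM of the glutathione transferases overlapped between the groups, from 1389 to 1732 in vehicle-treated and 1212 to 1682 in SK-124-treated mice. For the UDP-glycosyltransferases it ran from 667 to 803 and from 636 to 780.

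Called members were also set beside a neighbour of their own cluster. The log2 ratio of 2 genes within a mouse does not depend on how libraries are scaled, and 3 such ratios were computed on expected counts. The pairs were chosen after the values were seen, so the ratios are a description with no test. *Gstt2* relative to *Gstt1*, which lies 32530 bases away, was at -0.05 ± 0.14 in vehicle-treated and 0.29 ± 0.10 in SK-124-treated mice (SD, n = 6 each), and all 6 SK-124-treated mice were above all vehicle-treated mice. The difference between the group means was 0.34. *Sult1d1* relative to *Sult1b1*, 16450 bases away, was 0.54 higher, from 6.56 ± 0.26 to 7.11 ± 0.22 (SD, n = 6 each), with 5 of 6 SK-124-treated mice above the highest vehicle-treated mouse. *Gsta4* relative to *Gsta2*, 121669 bases away, was 0.21 higher, from -2.98 ± 0.09 to -2.77 ± 0.14 (SD, n = 6 each), with 4 of 6 above. Each pair set a member called higher over one not called, so the direction of the difference came with the choice of pairs. With each mouse left out in turn and on TPM, the differences ran from 0.29 to 0.37, 0.48 to 0.63 and 0.17 to 0.25.

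**Figure D4:**
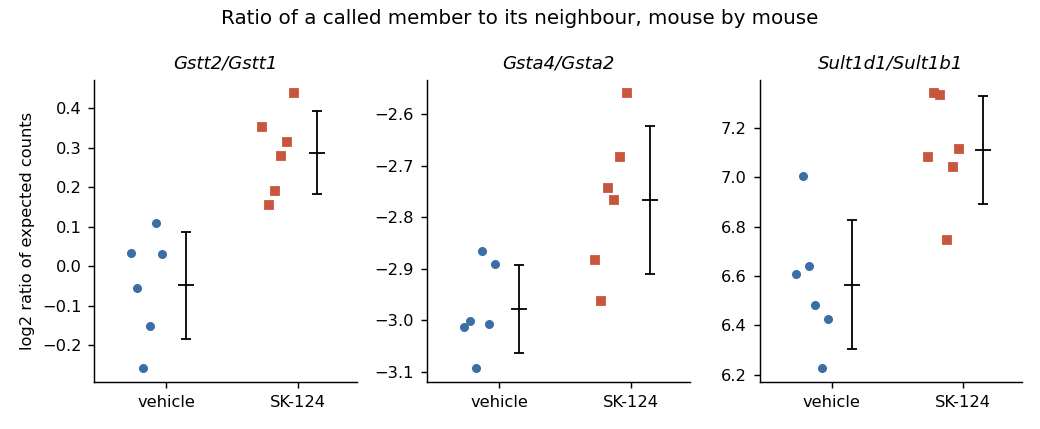
Log2 ratio of expected counts of a called member to a neighbouring member in each mouse (circles vehicle, squares SK-124), with bars giving mean ± SD of 6 mice. For *Gstt2*/*Gstt1* all 6 SK-124-treated mice lie above all vehicle-treated mice, while 1 vehicle-treated mouse of *Sult1d1*/*Sult1b1* and 2 of *Gsta4*/*Gsta2* reach into the SK-124 range.

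The genes that supply these enzymes and clear their products were read from lists, whose counts stand beside 10.8% of all genes tested called higher and 13.5% called lower. Of 18 tested genes of glutathione synthesis and turnover, 3 were higher and 15 were not called. *Chac1*, which cleaves glutathione, rose by 1.80 on the log2 scale (FDR = 0.000764, edgeR), with 0.342 ± 0.131 CPM in vehicle-treated and 1.22 ± 0.558 CPM in SK-124-treated mice (SD, n = 6 each). The other 2 were *Anpep* (0.22) and *Gpx1* (0.27). *Gclc*, the catalytic subunit of the first enzyme of glutathione synthesis, was at 0.23 (FDR = 0.346, edgeR) and *Gclm*, its modifier subunit, at -0.03 (FDR = 0.764). The median log2 fold change of the list was 0.13, against -0.01 for all genes tested. Of the 18, 7 were at an unadjusted p under 0.05 by edgeR, and DESeq2 called 4. Among all 14159 genes tested these numbers were 4983 and 3556.

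Of 10 tested genes of related families (membrane-bound transferases and their relatives, *Hpgds* and the *Clic* genes), 2 were lower and 8 were not called. *Hpgds*, a sigma-class transferase which makes prostaglandin D2 with glutathione, fell by 1.04 on the log2 scale (FDR = 0.00616, edgeR), with 0.881 ± 0.317 CPM in vehicle-treated and 0.427 ± 0.0735 CPM in SK-124-treated mice (SD, n = 6 each). *Clic5* was at -0.27. Of 7 tested genes listed under UDP-glucuronic acid supply and removal, *Ugdh*, which makes this compound from UDP-glucose, was higher by 0.18 (FDR = 0.0184, edgeR). The other 6 were not called by edgeR. Of the 7, 3 were at an unadjusted p under 0.05, and DESeq2 called 2. Of 14 tested genes listed under PAPS supply and sulfate removal, *Slc13a3*, a sodium-dicarboxylate cotransporter, was lower at -0.27 (FDR = 0.00527, edgeR). The other 13 were not called by edgeR, including both PAPS synthases, *Slc13a1* (0.27, FDR = 0.0552, edgeR) and *Slc26a1* (0.05, FDR = 0.557). Of the 14, 4 were at an unadjusted p under 0.05, and DESeq2 called 2.

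Of 16 tested regulators of conjugation genes and their known targets, 5 were higher, 2 were lower and 9 were not called. Among all genes tested 10.8% were higher and 13.5% were lower. *Hmox1*, the haem-degrading enzyme and a known NRF2 target, rose by 3.39 on the log2 scale (FDR = 2.54e-07, edgeR), with 20.6 ± 2.03 CPM in vehicle-treated and 215 ± 149.9 CPM in SK-124-treated mice (SD, n = 6 each). *Nr3c1*, the glucocorticoid receptor, fell by 0.62 (FDR = 2.98e-05), with 60.1 ± 5.22 CPM and 39.2 ± 5.17 CPM in the same order. *Bcl6*, a repressor, rose by 1.10 (FDR = 0.0179), with 19.4 ± 11.5 and 41.6 ± 15.3 CPM. *Stat5a* (0.40), *Stat5b* (0.33) and *Nfe2l2*, which encodes NRF2 (0.20), were also higher, and *Keap1*, which holds NRF2 in check, was lower (-0.17). *Nqo1* and *Txnrd1*, further known NRF2 targets on the list, were both at 0.13 and were not called (FDR = 0.407 and 0.333, edgeR).

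Markers of other kidney cells moved in some lists. *Cyp7b1*, 1 of 4 late proximal tubule markers, was higher by 0.43 (FDR = 0.000660, edgeR). The other 3 were not called, with *Slc22a7* at 0.22, *Slc7a13* at 0.03 and *Aqp7* at -0.27. The 4 summed to 584 to 753 CPM in vehicle-treated and 653 to 787 CPM in SK-124-treated mice. Of these 4, 2 were at an unadjusted p under 0.05 by edgeR, and DESeq2 called 2. *Aqp2*, 1 of 2 collecting duct markers, was higher by 0.75 (FDR = 0.000852), with list sums of 114 to 165 and 143 to 263 CPM. The other, *Atp6v1g3*, was at 0.04 and was not called (FDR = 0.785, edgeR). *Cd79a*, 1 of 3 tested leukocyte markers, was lower at -1.75 (FDR = 0.000627, edgeR). It was low in both groups, at 1.10 ± 0.326 CPM in vehicle-treated and 0.324 ± 0.192 CPM in SK-124-treated mice (SD, n = 6 each). *Ptprc* (-0.29) and *Lyz2* (0.06) were not called, and the list sums overlapped (11.8 to 15.2 and 9.87 to 14.8 CPM). Of the 3 tested, 2 were at an unadjusted p under 0.05 by edgeR, and DESeq2 called 1. The part of these markers in the changes of the members was not tested. The share of counts held by the 10 most abundant genes was 39.9% to 43.2% in vehicle-treated mice, 44.4% to 46.8% in SK-124-treated mice 1 to 3 and 38.6% to 40.2% in SK-124-treated mice 4 to 6. With SK-124-treated mice 1 to 3 alone 5 members were called and with mice 4 to 6 alone 6, all higher. *Sult1d1*, *Sult1a1*, *Ugt8a*, *Gstt2* and *Gsto1* were called in both. Of all genes, 1065 of 14512 were higher and 1233 were lower with mice 1 to 3 alone. With mice 4 to 6 alone, 1179 of 14621 were higher and 1267 were lower.

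**Figure D5:**
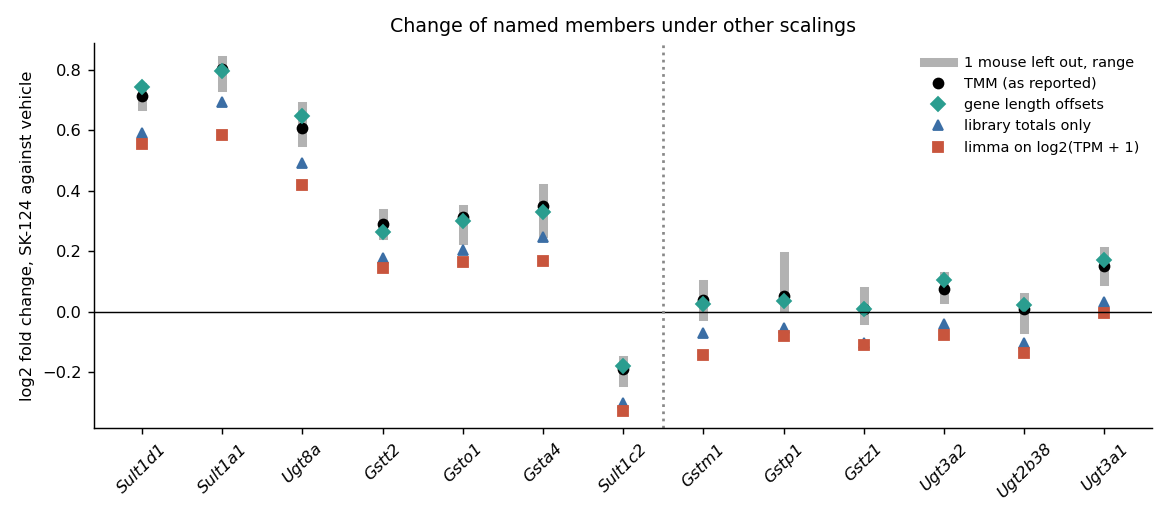
Log2 fold change of the 7 called members (left of the dotted line) and of the 6 other members with the highest levels in their classes, with TMM scaling, gene length offsets, library totals and limma on log2(TPM + 1), and the range with 1 mouse left out as a grey bar. The called members keep their sign throughout, while *Gstm1*, *Gstp1*, *Gstz1*, *Ugt3a2* and *Ugt2b38* pass below 0 with library totals and all 6 do so on TPM.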

How the data were processed

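Kidney RNA of 12 mice (6 vehicle, 6 SK-124) was sequenced on a BGISEQ500. Per the labels, the authors used FastQC, STAR 2.7.2b, RSEM 1.3.0 and mm10; annotation release and strand setting are not given in the sources used here. The authors deposited RSEM expected counts (not normalized), TPM and FPKM; FPKM was not used. All 65 members matched GENCODE M21 with their version.

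Expected counts were rounded, filtered with filterByExpr, scaled with TMM and tested with edgeR 4.0.16 (R 4.3.3), treatment only, with Benjamini-Hochberg adjustment over 14159 genes. Exact permutation tests used log2(CPM + 0.5). SE is the log2 fold change over the square root of F. The code was tested on simulated counts. 30 pairs of mice differed beyond counting noise (lowest chi-square per degree of freedom 4.69), so no pair looked like 1 library sequenced again. This check cannot tell whether different libraries came from the same mouse. Labels name 1 sample per mouse.

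Members and lists were chosen with earlier results of these data known. Named were the called members, the 3 highest by TPM in each class, and list genes called past 0.5 on the log2 scale; values of any other named gene were known when it was picked. Alternatives included DESeq2 1.42.0 and limma 3.58.1 on log2(TPM + 1) and log2(TPM + 0.1); gene length offsets and neighbour ratios were added after seeing the data. Marker lists also covered thick ascending limb, distal convoluted tubule, erythroid, adipocyte and hepatocyte genes, with 0 called by edgeR in each (1 thick ascending limb gene at an unadjusted p under 0.05, 0 in the others; 0 by DESeq2). 1 marker list is not reported here.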

Additional observations from a re-analysis of the deposited data

Results flagged for a closer look

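Among 26 sets of 6 mice examined for a mouse far from the others of its group, where chance gives about 1.3, 4 stood out on TMM-normalized CPM. Vehicle-treated mouse 3 was the highest of its group for *Gstm1*, at 459.7 CPM against 357 to 387 in the other 5, and for *Gstp1*, at 207 CPM against 124 to 134. Of all mice, this one had the values that fell most with gene length. *Sult1a1* in vehicle-treated mouse 2 was the lowest of its group, at 7.04 CPM against 8.97 to 9.53, and without that mouse the log2 fold change of *Sult1a1* was 0.74. *Gsto1* in SK-124-treated mouse 5 was the highest of its group, at 42.2 CPM against 30.6 to 32.7, and without it the log2 fold change of *Gsto1* was 0.24.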

How the results depend on the processing

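Over 24 alternative fits, *Sult1d1* (log2 fold change 0.55 to 0.81), *Sult1a1* (0.58 to 0.91) and *Ugt8a* (0.42 to 0.68) were called in each, *Gstt2* and *Gsto1* in 21, *Gsta4* in 20 and *Sult1c2* in 13. In place of 7 members called (6 higher), library totals and limma on TPM with a pseudocount of 1 or of 0.1 each called 4 (3 higher). With 1 mouse left out, 6 to 11 members were called and 6 to 10 were higher, and the highest counts were without vehicle-treated mouse 3. All genes called numbered 3453, and with 1 mouse left out 2960 to 3942. SK-124-treated mice 1 to 3 alone gave 2298. The share of calls that were higher fell from 44.5% to 20.3% with library totals and to 19.0% on TPM, and rose to 52.6% with gene length offsets. The directions that turned were all of members not called. With library totals, log2(TPM + 1) and log2(TPM + 0.1) they were -0.041, -0.077 and -0.078 for *Ugt3a2*, -0.10, -0.14 and -0.14 for *Ugt2b38*, -0.069, -0.14 and -0.14 for *Gstm1*, -0.052, -0.081 and -0.081 for *Gstp1* and -0.10, -0.11 and -0.11 for *Gstz1*. *Ugt3a1* was at -0.0041 and -0.0042 on the TPM scales. With SK-124-treated mice 4 to 6 alone *Ugt3a2* was at -0.016 and *Gstz1* at -0.027. With 1 mouse left out *Ugt2b38* ran from -0.055 to 0.048, *Gstm1* from -0.014 to 0.092 and *Gstz1* from -0.027 to 0.070. Replicate numbers belong to different mice, so the main fit did not take them as pairs. Of the 6 same-numbered pairs of mice, numbers 2 and 3 deviated together (correlations 0.15 and 0.17, against at most 0.035 and 0.080 with other numbers). The other 4 ran from -0.106 to 0.033, so the correlations were mixed. With the replicate number as a block, 7 members were called, with *Ugt1a10* added and *Sult1c2* no longer called, and 3466 genes in all. The causes were not tested. Of the 30 members left out by the filter, 15 were at 0 in every mouse and 15 had at most 15 counts, and without the filter 50 members were tested.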
